A study of Homo sapiens with 6 samples.

Results

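Homologous recombination repair genes were followed by every probe set of BRCA1, BRCA2, RAD51C, RAD51D, PALB2, BARD1, ATM, ATR and RAD50 whose only annotated gene symbol was one of these. The rule gave 22 probe sets of 8 genes, out of 41091 probe sets with a single symbol, which stand for 19775 genes. ATM had 6 probe sets, BARD1, ATR and RAD50 had 3 each, BRCA1, RAD51C and RAD51D had 2 each, and PALB2 had 1. BRCA2 had 0 under the rule and was not analysed here. The RNA came from SKOV-3 and Caov-3, both established human ovarian carcinoma cell lines, and was measured on 6 Affymetrix U133 Plus 2.0 arrays. Each line gave an untreated array, an array of cells given interleukin-6 (IL-6, an inflammatory cytokine) at 30 ng/ml for 1 h, and an array of cells given the anti-IL-6 antibody siltuximab (CNTO328) for 4 h and then the same IL-6 for 1 h. The labels do not state how much siltuximab was used, and no array with the antibody alone was analysed here. RNA of 3 flasks was pooled for each array, so that each of the 6 groups had 1 array, a difference within a line had no replicate check, and precision is limited by how few arrays there are.

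Homologous recombination copies an intact sister chromatid to mend a broken DNA end. ATM and ATR are the kinases that signal the damage, and RAD50, in a complex with MRE11 and NBN, holds and helps to process the ends. BRCA1 and its partner BARD1 act as a ubiquitin ligase and promote resection of the ends, PALB2 bridges BRCA1 to BRCA2, and RAD51C and RAD51D, which are paralogs, assist the strand exchange that follows. Inherited defects in several of these genes raise the risk of ovarian cancer, and loss of the pathway sensitises tumour cells to platinum drugs and PARP inhibitors.

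The arrays had been scaled alike, with medians over all probe sets of 72.8 to 89.8. The Caov-3 IL-6 array stood apart from the others. Its 5' to 3' signal ratio of the ACTB control probe sets, a measure of RNA integrity, was 0.494 against 0.643 to 0.767 on the other 5 arrays. The same ratio of GAPDH did not set it apart, at 1.053 against 0.957 to 1.07. Further, 8.71% of its probe sets lay at least 2-fold from the untreated Caov-3 array, against 2.64% for IL-6 in SKOV-3. The epithelial carcinoma marker KRT18 was at 25102 to 31109 on all arrays. All 11 listed markers of this kind passed the filter used below, which the arrays of 1 line are enough to pass. Their summed signal was 44137 to 52152 in SKOV-3 and 109702 to 115226 in Caov-3. Of them KRT19 (4.37, 7.38 and 57.9), CDH1 (27.5, 11.0 and 14.4) and MUC16 (5.90, 2.92 and 3.34) were near the lower end of the signals in SKOV-3. ERBB2, the receptor gene for whose amplification SKOV-3 is known, went against the label on its brightest probe set. That probe set read 648, 580 and 733 on the arrays labelled SKOV-3 and 1017, 1243 and 1067 on those labelled Caov-3. Of the 3 ERBB2 probe sets only this 1 was lower on every SKOV-3 array. On the others, at 20.3 to 113 and at 6.77 to 78.3 over all arrays, the lines overlapped. The name SKOV-3 stands below for the arrays so labelled. Of 6 leukocyte markers with a probe set 3 passed the filter: the monocyte gene CD14, at 77.6 to 135 in SKOV-3 and higher in Caov-3, at 573 to 667 (limma adjusted p 0.000181), CD79A, at 149 to 344 on all arrays, and LCP1, at 37.2 to 170. PTPRC, the common leukocyte marker, was at 0.517 to 35.1 over its probe sets. The part of these marker genes in the results was not tested. Fibroblast and endothelium markers summed to 509 to 720 in SKOV-3 and 4914 to 5900 in Caov-3, and 2 of 8 passed the filter. On their brightest probe sets these read, in Caov-3, 3802 to 4826 for COL1A1 and 331 to 1162 for the endothelial gene PECAM1. The other probe sets of PECAM1 were at 3.16 to 73.1 in Caov-3, and those of COL1A1 at 15.5 to 883.

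The first comparison asked how the lines differed in these genes. RAD51D and ATM gave the largest differences, both lower in Caov-3, by 3.08-fold for RAD51D and by 1.89-fold for ATM on their brightest probe sets. BRCA1 was lower in Caov-3 by 1.56-fold and ATR by 1.20-fold. RAD51C, PALB2, RAD50 and BARD1 did not pass the test on their brightest probe sets. The test was limma over all 6 arrays with the treatment as a factor, on log2 of the signal plus a pseudocount of 17.1, so that fold changes of low signals are understated. The 3 arrays of a line are 3 treatments and not replicates, and the error is how far treatment effects differed between the lines.

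Of the 22 probe sets, 19 passed the filter, which asked that at least 2 of the 6 arrays be at or above their median, and all 8 genes had at least 1 among them. The other 3 are dim probe sets of ATM. At an adjusted p under 0.05, 9 of the 19 were lower in Caov-3 and 0 were higher. Across all 23169 probe sets tested, 62.8% were called, 31.3% lower and 31.5% higher in Caov-3, so that the 9 of 19 repair probe sets called were a smaller share than that of the whole array. The median difference was -0.32 on the log2 scale for the 19 and -0.03 for all probe sets. The lines did not overlap on 13 of the 19, against 69.9% of all probe sets: 12 had every Caov-3 array below every SKOV-3 array (35.5% of all) and 1 had every one above (34.4% of all). ATM 208442_s_at and RAD51D 37793_r_at passed the filter through the 3 SKOV-3 arrays alone, and their difference was in part set by that. After cyclic loess scaling 8 of the 19 were lower and 2 higher (62.9% of all were called). Without the Caov-3 IL-6 array 11 were lower and 0 higher (66.7% of all were called). Leaving out the SKOV-3 IL-6 array gave the same differences and also 11, since an IL-6 array on its own tells nothing of the lines in this fit. Without any 1 of the other 4 arrays 6 were lower and 0 higher, and 47.7% to 51.4% of all probe sets were called.

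**Figure D1:**
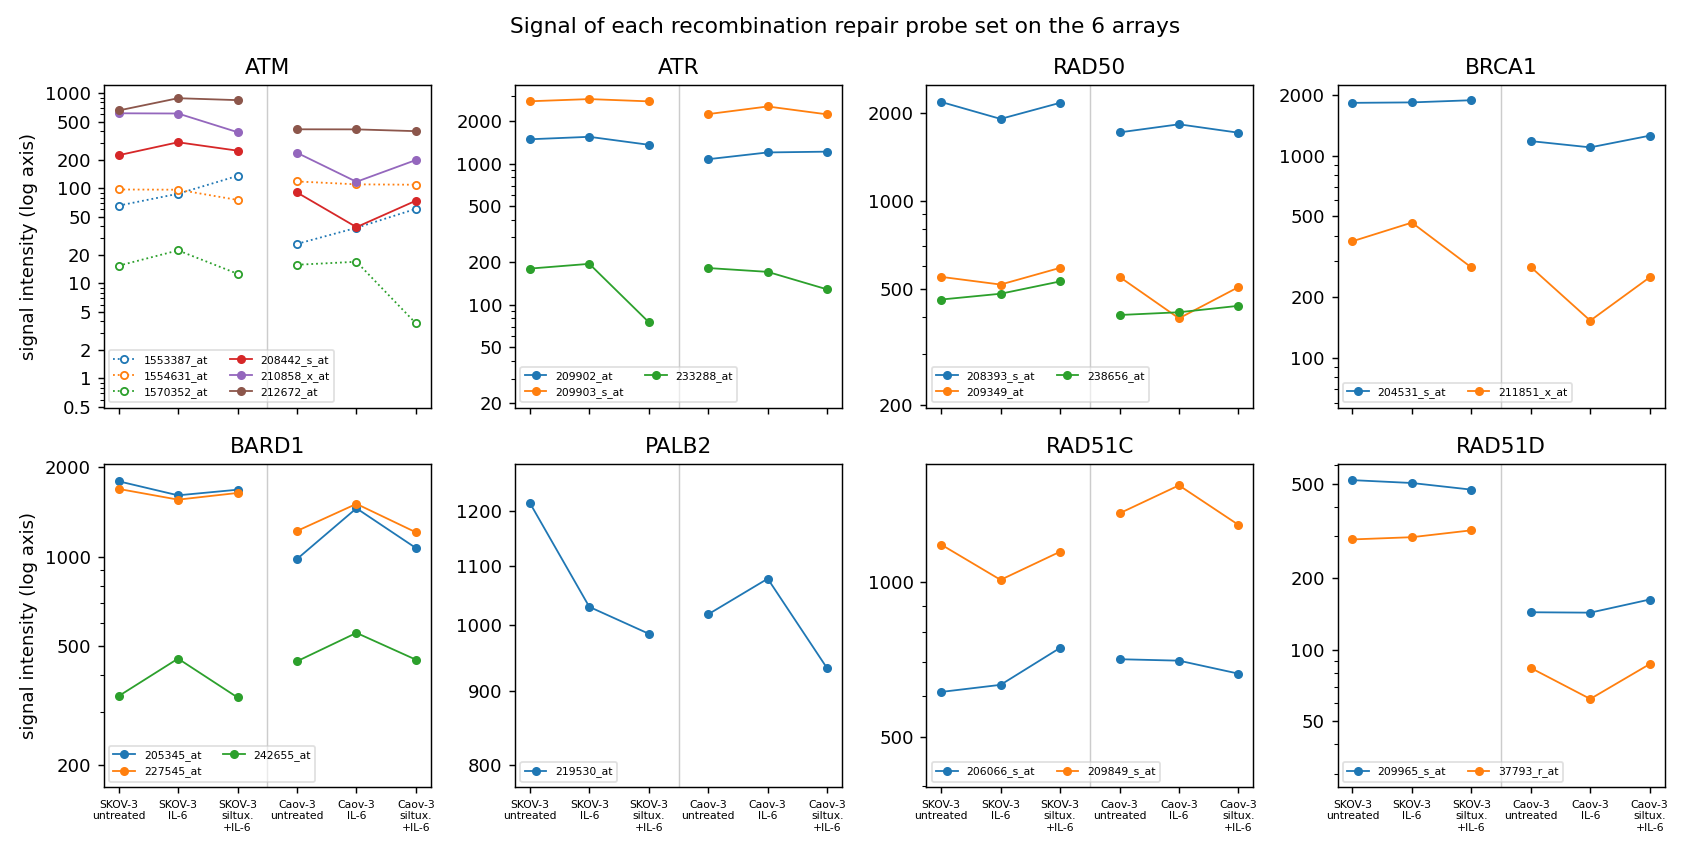
Signal of each probe set (log axis, one colour a probe set) on the 6 arrays, by gene, with lines joining the 3 treatments of a cell line. Open symbols with dotted lines are the 3 ATM probe sets that did not pass the filter. Both RAD51D probe sets and the filled ATM probe sets lie lower on every Caov-3 array than on every SKOV-3 array, whereas PALB2 overlaps between the lines.

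Among the damage-signalling kinases, ATM was lower in Caov-3 on all 3 of its tested probe sets. Of these, 208442_s_at passed the filter through the 3 SKOV-3 arrays alone, so that its direction was in part set by the filter. The suffix of 210858_x_at marks probes that can bind related transcripts. The brightest, 212672_at, read 659, 887 and 847 in SKOV-3 (untreated, IL-6, and siltuximab plus IL-6, an order kept below) and 418, 417 and 399 in Caov-3. The Caov-3 arrays lay close together there and below every SKOV-3 array, a log2 difference of -0.92 (SE 0.141, limma adjusted p 0.00264). ATM 210858_x_at read 616, 612 and 390 in SKOV-3 and 237, 117 and 198 in Caov-3, a log2 difference of -1.49 (SE 0.275, adjusted p 0.00531). ATM 208442_s_at read 223, 305 and 249 in SKOV-3 and 90.5, 39.1 and 74.2 in Caov-3, a log2 difference of -1.74 (SE 0.318, adjusted p 0.00511). On both of these the Caov-3 IL-6 array was the lowest of all. Without that array the differences were -1.12 (adjusted p 6.0e-04) and -1.35 (adjusted p 0.0015), and that of 212672_at was -0.84 (adjusted p 0.00104). The 3 untested probe sets of ATM did not share one direction: 1553387_at lay at 65.8 to 135.2 on the SKOV-3 arrays and lower, at 26.0 to 60.9, on the Caov-3 arrays, while 1554631_at lay at 75.5 to 97.2 on the former and higher, at 109.1 to 118.2, on the latter. The dimmest, 1570352_at, was at 3.8 to 22.3 on all arrays.

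ATR, the kinase that answers to stretches of single-stranded DNA and to stalled replication forks, differed less. ATR 209903_s_at read 2768, 2869 and 2764 in SKOV-3 and 2246, 2543 and 2235 in Caov-3, and ATR 209902_at read 1489, 1550 and 1361 against 1076, 1201 and 1216. On both, every Caov-3 array was below every SKOV-3 array. The log2 differences were -0.26 (SE 0.0761, limma adjusted p 0.029) and -0.33 (SE 0.101, adjusted p 0.0333). Both calls were lost without any 1 of the 4 arrays other than the IL-6 ones (adjusted p 0.135 to 0.174 for 209903_s_at and 0.0671 to 0.171 for 209902_at). That of 209902_at was also lost after cyclic loess (adjusted p 0.0599), and with the mean of all ATR probe sets the difference was -0.14 (adjusted p 0.302). ATR 233288_at, a dim probe set, read 180, 195 and 75.2 in SKOV-3 and 182, 171 and 128 in Caov-3, where the lines overlapped (log2 difference 0.17, 95% interval -0.45 to 0.78).

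RAD50, the coiled-coil subunit that tethers DNA ends, was slightly lower in Caov-3 on each of its probe sets without passing the test. RAD50 208393_s_at read 2177, 1905 and 2162 in SKOV-3 and 1713, 1825 and 1708 in Caov-3, with no overlap and a log2 difference of -0.25 (SE 0.0951, limma adjusted p 0.0673). Without the Caov-3 IL-6 array it was -0.34 (adjusted p 0.0078), which passed. Without any 1 of the arrays other than the IL-6 ones it was -0.20 and did not pass. RAD50 209349_at read 549, 517 and 589 against 549, 396 and 506, and RAD50 238656_at read 459, 480 and 529 against 406, 415 and 437. Their differences of -0.19 (95% interval -0.53 to 0.14) and -0.21 (95% interval -0.53 to 0.10) left room for no difference. Of its partners, NBN was lower in Caov-3 (log2 difference -0.84, SE 0.0794, adjusted p 0.000444) and MRE11 was at 0.18 (adjusted p 0.172).

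The gene of the ubiquitin ligase BRCA1 was lower in Caov-3 on its brighter probe set. BRCA1 204531_s_at read 1823, 1833 and 1878 in SKOV-3 and 1179, 1098 and 1255 in Caov-3. The arrays within a line lay close together and the lines did not overlap, a log2 difference of -0.64 (SE 0.0868, limma adjusted p 0.00161) that was -0.60 without the Caov-3 IL-6 array. BRCA1 211851_x_at, whose suffix marks probes that can bind related transcripts, read 377, 466 and 280 in SKOV-3 and 281, 153 and 250 in Caov-3. There the lines overlapped, and the difference of -0.69 had a 95% interval of -1.42 to 0.04 (adjusted p 0.0879). It passed after quantile normalization (adjusted p 0.0465), and was -0.28 without the Caov-3 IL-6 array.

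Probe sets of BARD1, the partner that stabilises BRCA1, did not share one direction between the lines. BARD1 205345_at read 1795, 1609 and 1681 in SKOV-3 and 983, 1456 and 1070 in Caov-3, a log2 difference of -0.55 (SE 0.152, limma adjusted p 0.0239). BARD1 227545_at read 1691, 1556 and 1639 against 1221, 1506 and 1209, a difference of -0.32 (SE 0.116, adjusted p 0.0581). On both the lines did not overlap, and the Caov-3 IL-6 array came nearest to SKOV-3. Without that array both passed, at -0.75 (adjusted p 2.1e-04) and -0.45 (adjusted p 0.00276). Without any 1 of the 4 arrays other than the IL-6 ones 205345_at lost its call, with differences of -0.50 to -0.39 (adjusted p 0.110 to 0.129). Under those same omissions 227545_at was at -0.26 to -0.24 and did not pass. BARD1 242655_at read 340, 454 and 336 in SKOV-3 and 445, 555 and 451 in Caov-3, a difference the other way of 0.35 (SE 0.129, adjusted p 0.0579), which passed after cyclic loess (0.39, adjusted p 0.0438).

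PALB2, the bridge to BRCA2, read 1217, 1030 and 987 in SKOV-3 and 1018, 1078 and 934 in Caov-3 on its single probe set 219530_at. The lines overlapped, and the log2 difference of -0.09 had a 95% interval of -0.36 to 0.18 (limma adjusted p 0.495). A difference of more than 1.28-fold in favour of SKOV-3 lay outside that interval.

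The paralogs RAD51C and RAD51D did not move alike. RAD51D 209965_s_at read 517, 503 and 471 in SKOV-3 and 144, 143 and 163 in Caov-3, with a wide gap between the lines and little spread within them. RAD51D 37793_r_at read 291, 297 and 318 against 83.9, 62.1 and 87.1, also without overlap. It passed the filter through the 3 SKOV-3 arrays alone, so that its direction was in part set by the filter. The log2 differences were -1.62 (SE 0.161, limma adjusted p 5.2e-04) and -1.76 (SE 0.204, adjusted p 8.9e-04), that is 3.08-fold (95% interval 2.33 to 4.07) and 3.39-fold (2.38 to 4.82). RAD51D was called on both probe sets in all 16 settings in which each was fitted, the one reported included, with differences of -1.72 to -1.22 and of -1.96 to -1.13. RAD51C 209849_s_at read 1185, 1011 and 1147 in SKOV-3 and 1364, 1546 and 1295 in Caov-3, where every Caov-3 array was the higher (log2 difference 0.33, SE 0.121, adjusted p 0.0599). It passed after quantile normalization (0.34, adjusted p 0.047) and after cyclic loess (0.38, adjusted p 0.0317), but was 0.19 without the Caov-3 IL-6 array (adjusted p 0.137). RAD51C 206066_s_at read 611, 631 and 745 against 708, 703 and 663, with overlap and a difference of 0.07 (95% interval -0.25 to 0.38).

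**Figure D2:**
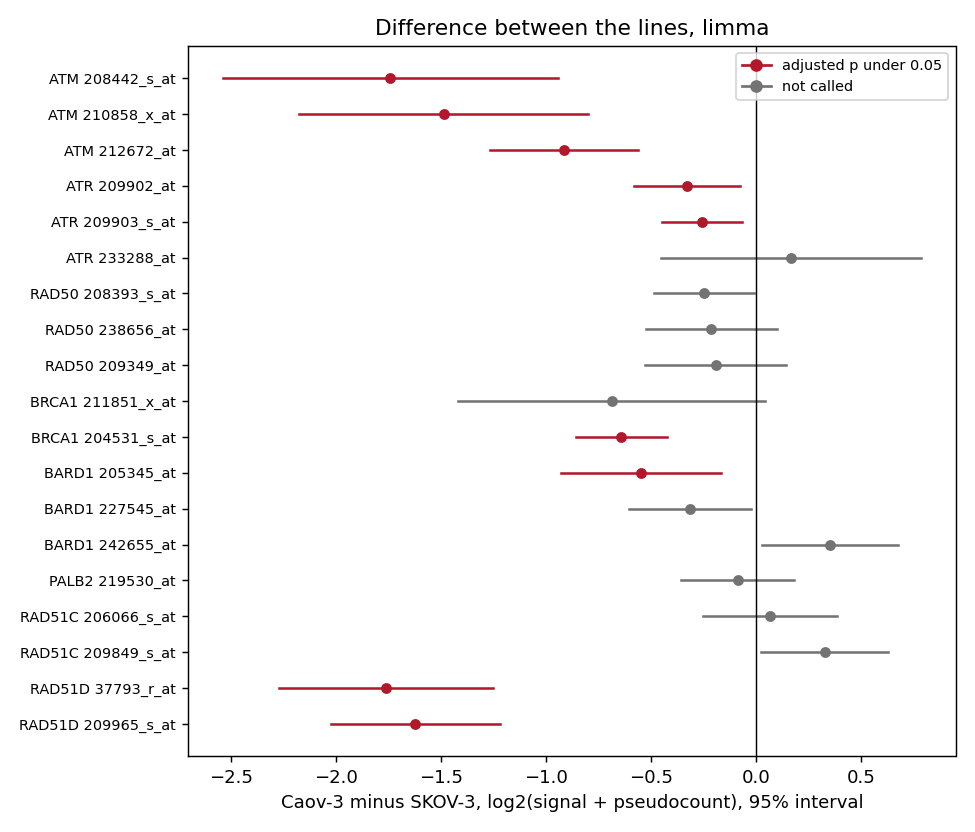
Caov-3 minus SKOV-3 on log2(signal + pseudocount) for the 19 tested probe sets, with limma's 95% intervals, in red where the adjusted p was under 0.05. The 9 called probe sets, of RAD51D, ATM, BRCA1, BARD1 and ATR, all lie to the left of 0, and BARD1 242655_at lies on the other side from the other BARD1 probe sets.

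The promoter windows of RAD51D and ATM, which differed most between the lines, and of RAD51C, the paralog that did not pass, are shown for comparison. Each is a RefSeq window of 300 bases on GRCh38.p14, 250 before and 50 after the most upstream listed start of the gene, read 5′ to 3′ on the gene's strand. Capitals mark a match, on either strand, to one of the motifs searched. The GC box, bound by SP1-like factors, was searched as GGGCGG. The box bound by the factor NF-Y was searched as CCAAT. The core bound by ETS factors was searched as CCGGAAG. The cyclic AMP response element was searched as TGACGTCA. The core bound by E2F factors was searched as GCGGGAA. The STAT element, STAT3 being the factor that IL-6 activates, was searched as TTCNNNGAA. RAD51D lies at chr17:35119811-35120110 on the minus strand, ATM at chr11:108222817-108223116 on the plus strand and RAD51C at chr17:58692323-58692622 on the plus strand.
RAD51D: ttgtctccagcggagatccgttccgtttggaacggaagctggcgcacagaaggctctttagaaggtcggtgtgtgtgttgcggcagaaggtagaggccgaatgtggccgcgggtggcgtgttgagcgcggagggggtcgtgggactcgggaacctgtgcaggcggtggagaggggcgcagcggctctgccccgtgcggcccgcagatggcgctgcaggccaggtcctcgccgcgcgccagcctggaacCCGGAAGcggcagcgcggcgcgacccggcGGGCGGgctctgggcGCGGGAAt
ATM: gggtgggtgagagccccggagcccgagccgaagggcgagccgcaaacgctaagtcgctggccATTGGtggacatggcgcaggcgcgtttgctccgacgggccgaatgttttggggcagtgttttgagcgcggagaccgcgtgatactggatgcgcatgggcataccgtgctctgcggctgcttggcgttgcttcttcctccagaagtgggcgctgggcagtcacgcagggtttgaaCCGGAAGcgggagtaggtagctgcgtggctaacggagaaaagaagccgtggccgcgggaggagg
RAD51C: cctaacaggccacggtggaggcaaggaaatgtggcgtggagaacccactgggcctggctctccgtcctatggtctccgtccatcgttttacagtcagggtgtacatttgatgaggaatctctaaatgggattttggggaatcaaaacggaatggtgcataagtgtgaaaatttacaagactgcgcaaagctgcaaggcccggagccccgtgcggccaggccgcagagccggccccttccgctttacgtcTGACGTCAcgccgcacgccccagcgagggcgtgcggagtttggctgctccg
RAD51D holds the ETS core, a GC box and the E2F-like core, ATM holds CCAAT, read on the other strand, and the ETS core, and RAD51C holds the cyclic AMP response element. Over the 13 windows listed for the 9 genes, BRCA2 included, CCGGAAG was found in 7, of 6 genes, where 10.3% of all 35116 promoter windows hold it. GGGCGG was found in 6 of the 13 (45% of all windows), CCAAT in 4 (34.6%), GCGGGAA in 4 (6.55%) and TGACGTCA in 2, both of RAD51C (1.85%). The STAT letters TTCNNNGAA were found in 0 of the 13 and in 7.66% of all windows. The paired windows of RAD51C, RAD51D and ATM overlap, a match is no evidence of binding, and no match says only that the letters are not in the window.

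Position on the chromosome was set beside these differences, using the GRCh38.p14 gene order for the 10 tested protein-coding genes on each side of a gene. Of the 20 neighbours of RAD51D on chromosome 17, 13 were lower in Caov-3 by the same test and 3 higher, with a median log2 difference of -1.04. The nearest tested gene on either side, LIG3, a DNA ligase, and NLE1, were at -1.39 and -2.51. Of the 20 neighbours of ATM on chromosome 11, 13 were lower and 2 higher (median -0.88). NPAT, which shares its start region with ATM, was at -0.47. POGLUT3, the nearest tested gene on the other side, was at -0.17 and did not pass (limma adjusted p 0.206). Around BRCA1 12 of 20 were lower and 2 higher (median -0.63). The nearest tested genes to BRCA1 went opposite ways, RND2 at 2.52 and NBR1 at -0.73. RAD51C, further along chromosome 17, lay among genes that were mostly higher in Caov-3, 12 of 20 against 2 lower (median 0.75). PALB2 on chromosome 16 overlapped between the lines although 15 of its 20 neighbours were lower and 0 higher (median -0.89). Around BARD1 10 of 20 were higher and 7 lower, around ATR 7 and 5, and around RAD50 11 and 5. Across all 12290 genes tested by their brightest probe set, 30.8% were lower and 37.2% higher, with a median of 0.07. DNA copy number was not measured, and its part in these differences was not tested.

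The other genes of the pathway differed in both directions. Of 68 listed genes, 62 had a probe set with a single symbol and all 62 passed the filter. Counted by probe set, as the repair genes were above, 44 of their 120 tested probe sets were lower in Caov-3 and 26 higher. Of all probe sets 31.3% were lower and 31.5% higher. The median log2 difference of the 120 was -0.39, against -0.32 for the tested repair probe sets, so that a low median was not particular to the latter. By the brightest probe set 23 genes were lower in Caov-3 and 18 higher, where 30.8% and 37.2% of all genes were, with a median log2 difference of -0.09. Higher in Caov-3 were TIMELESS, a replication fork protector, at 1.75, RAD54L, a motor that drives strand exchange, at 1.62, TP53BP1, which shields ends from resection, at 1.503, the checkpoint kinase gene CHEK2 at 1.45 and the strand exchange cofactor RAD51AP1 at 1.34. Lower were UIMC1, which brings BRCA1 to ubiquitin chains, at -1.17, CDK12, a kinase needed for transcription of long repair genes, at -1.13, RMI1, a partner of the BLM helicase, at -1.12, the helicase HELQ at -1.11 and RIF1, an effector of TP53BP1, at -1.01. All 10 had a limma adjusted p of at most 0.00425.

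By role the lists are small, and they were not tested against the shares of all genes, 37.2% higher in Caov-3 and 30.8% lower. Of 11 genes of strand exchange and its mediators 5 were higher and 2 lower, and 2 of 3 RPA subunit genes were lower and 0 higher. Among genes of junction resolution 4 of 6 were lower and 1 higher, and 3 of 11 Fanconi anaemia genes were lower and 3 higher. Of the 12 damage-signalling genes 4 were higher and 5 lower, and of the 5 BRCA1-A complex genes 2 were higher and 3 lower. Of 6 genes of end resection 1 was higher and 1 lower. Other repair genes and inhibitors of recombination, 8 in all, had 2 higher and 3 lower. Proliferation genes, which many repair genes follow through the cell cycle, were measured beside them: 5 of 17 were higher in Caov-3 and 5 lower, with a median of 0.05. MCM3 was at 1.18, MCM6 at 0.97 and MCM7 at 0.41, whereas TOP2A was at -1.11, CCNA2 at -1.10 and CCNB1 at -0.74. MKI67, a proliferation marker, was at 0.05 (adjusted p 0.554).

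**Figure D3:**
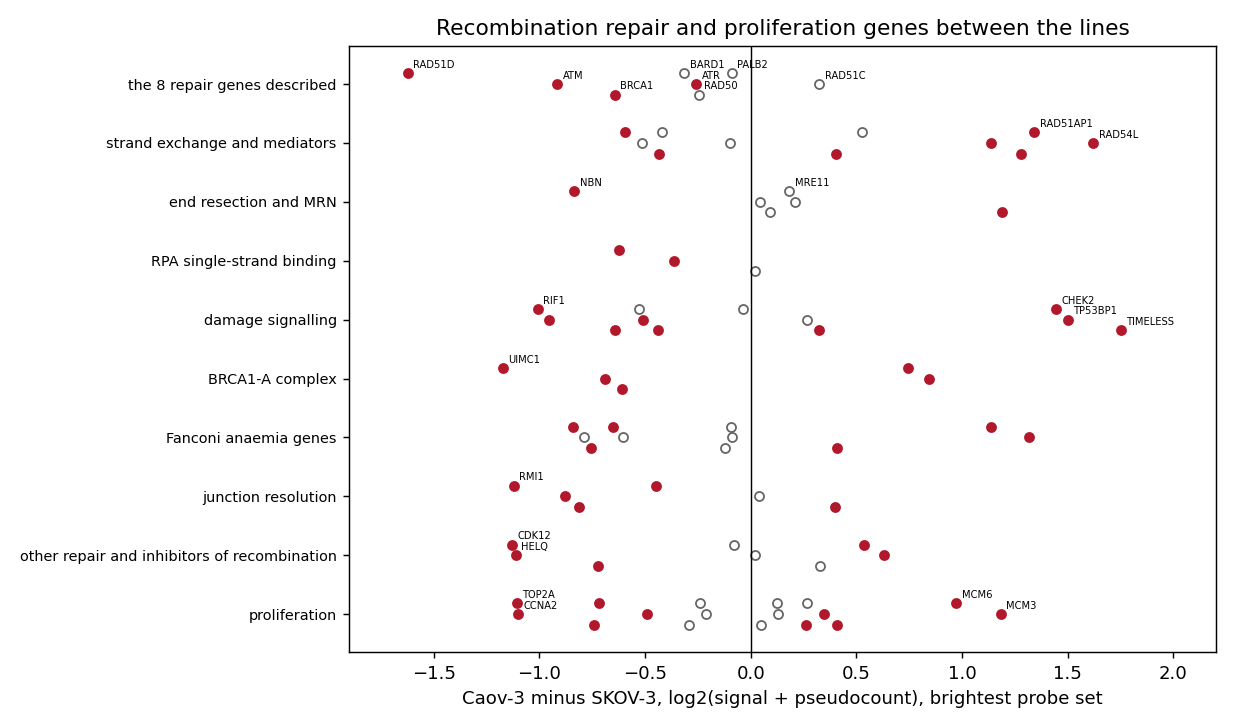
Caov-3 minus SKOV-3 on log2(signal + pseudocount) for the brightest probe set of each gene, by role, with filled symbols for an adjusted p under 0.05 and open ones otherwise. The other pathway genes fall on both sides of 0, from RIF1, UIMC1 and CDK12 on the left to RAD54L and TIMELESS on the right, while RAD51D at -1.62 lies below each of the other recombination and proliferation genes drawn.

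The second question was whether 1 h of IL-6 moved these genes. In SKOV-3 0 of the 19 probe sets that entered the comparison lay 2-fold from its untreated signal, and 0 lay 1.5-fold from it, where 2.64% of all 21591 probe sets lay at least 2-fold away (10.2% at least 1.5-fold). Their log2 folds ran from -0.24 (PALB2) to 0.43 (ATM 208442_s_at), with a median of 0.03. ATM was above untreated on 212672_at too, at 0.42, but at -0.01 on 210858_x_at. On the brightest probe sets BRCA1 was at 0.01, ATR at 0.05, RAD51D at -0.04, BARD1 at -0.12, RAD50 at -0.19 and RAD51C at -0.23. The robust SD of folds among probe sets of like signal was 0.125 to 0.589 over the 6 comparisons, a measure of how far single folds scatter.

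In Caov-3, 0 of 17 probe sets lay 2-fold away, where 8.71% of all 21838 did. At 1.5-fold 2 were lower and 0 higher, against 18.8% of all probe sets in either direction and 13.6% lower. These were ATM 210858_x_at at -0.92 and BRCA1 211851_x_at at -0.81, while the brightest probe sets of the same genes were at 0.00 and -0.10. ATM 208442_s_at, below the median on both arrays, was at -0.94. Probe sets of 1 gene thus did not move together on this array, which is the one with the low ACTB ratio. The part of RNA integrity in these folds was not tested. BARD1 was above untreated on all 3 of its probe sets, at 0.56, 0.30 and 0.31, and in SKOV-3 it was at -0.16, -0.12 and 0.40 on the same probe sets. RAD51D was at -0.01 and RAD51C at 0.18 on their brightest probe sets.

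The third question was whether siltuximab given before IL-6 changed these signals. The comparison with the IL-6 array shares that array with the one above, so that the values are given side by side and are not independent. BARD1 in Caov-3, at 983 untreated and 1456 with IL-6 on 205345_at, was at 1070 with the antibody. Its 3 probe sets lay at -0.44, -0.31 and -0.29 against the IL-6 array and at 0.12, -0.01 and 0.02 against the untreated one. None of these folds reached 1.5-fold, and the Caov-3 IL-6 array is the one with the low ACTB ratio. On the same probe sets, in the same order, SKOV-3 was at 0.06, 0.07 and -0.42 against its IL-6 array. In Caov-3 0 of 18 probe sets lay 2-fold from the IL-6 array (7.24% of all did), and 2 were at least 1.5-fold above it (11.9% of all, with 15.1% in either direction), ATM 210858_x_at at 0.68 and BRCA1 211851_x_at at 0.65. Against the untreated array 0 of 17 lay 2-fold away (1.42% of all) and 0 lay 1.5-fold from it (7.1% of all), a comparison that leaves the IL-6 array out. Against the untreated array the Caov-3 folds ran from -0.45 (ATR 233288_at) to 0.17.

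In SKOV-3, 1 of 20 probe sets was at least 2-fold below the IL-6 array (0.804% of all probe sets were, and 1.3% in either direction). This was ATR 233288_at, at 75.2 against 195 with IL-6 and 180 untreated, a log2 fold of -1.20 and of -1.10 against untreated. The other ATR probe sets, 209902_at and 209903_s_at, were at -0.19 and -0.05 against the IL-6 array. In Caov-3 the same dim probe set was at -0.37. At 1.5-fold 3 were below the IL-6 array in SKOV-3 (3.82% of all, with 6.3% in either direction), the others being BRCA1 211851_x_at at -0.70 and ATM 210858_x_at at -0.63. Against the untreated SKOV-3 array 1 of 20 was at least 2-fold lower (1.29% of all, with 2.12% in either direction). At 1.5-fold 2 were lower (4.71% of all) and 1 was higher (3.59% of all, with 8.3% in either direction), the latter being ATM 1553387_at at 0.88, a dim probe set. On the brightest probe sets the folds against IL-6 lay between -0.09 and 0.18 in SKOV-3, and between -0.31 and 0.19 for Caov-3.

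**Figure D4:**
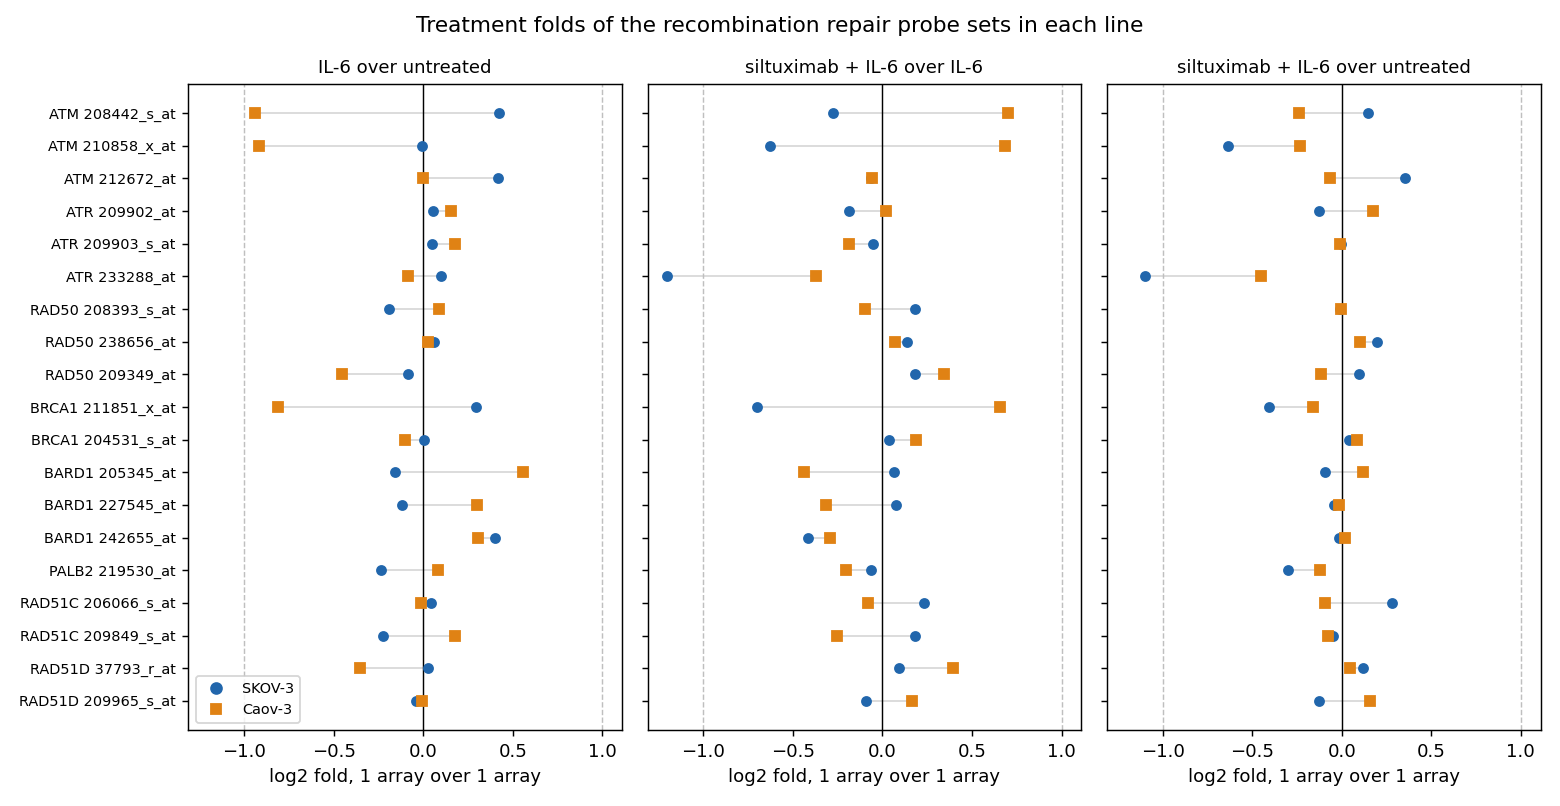
Log2 folds of 1 array over 1 array for the 19 probe sets of the fit (rows), in SKOV-3 (blue circles) and Caov-3 (orange squares), for the 3 treatment comparisons, some points being below the signal filter of their comparison. Dashed lines mark 2-fold, which ATR 233288_at passes in SKOV-3 with siltuximab plus IL-6, and the Caov-3 folds of ATM 208442_s_at, ATM 210858_x_at and BRCA1 211851_x_at stand apart on both comparisons that use the Caov-3 IL-6 array.

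Over both lines together, limma called 0 of the 19 probe sets for IL-6, 0 for siltuximab plus IL-6 against IL-6 and 0 for siltuximab plus IL-6 against untreated, and it called 0% of all 23169 probe sets in each comparison. Without the SKOV-3 IL-6 array, which leaves the IL-6 effect resting on the Caov-3 IL-6 array, 9.29% of all probe sets were called for IL-6 and 6.45% for siltuximab plus IL-6 against IL-6. The repair probe sets had 0 calls there too, with smallest adjusted p of 0.0552 and 0.0770. At an unadjusted p under 0.05 there were 0, 1 and 1 of the 19, against 8.09%, 2.49% and 4.51% of all probe sets. The 1 in each was ATR 233288_at, with differences of -0.78 (95% interval -1.54 to -0.03) and -0.77 (-1.53 to -0.02) and limma adjusted p of 0.971 and 0.9999. The intervals of the brightest probe sets show what size of a shared IL-6 effect these arrays could miss: RAD51D had a difference of -0.02 (95% interval -0.51 to 0.47), ATM of 0.21 (-0.22 to 0.64), BRCA1 of -0.05 (-0.31 to 0.22) and ATR of 0.11 (-0.12 to 0.35). Of the other pathway genes, the largest IL-6 folds in SKOV-3 were those of XRCC3, a partner of RAD51C, at -1.14, the helicase RECQL5 at -0.67 and ABRAXAS1, the scaffold of the BRCA1-A complex, at 0.64. In Caov-3 they were those of the checkpoint mediator CLSPN at -1.91, the nuclease scaffold SLX4 at 1.46 and the Fanconi gene FANCB at 1.27. All these folds are without a replicate, and those in Caov-3 rest on the IL-6 array with the low ACTB ratio. Untreated Caov-3 signals of SLX4 (51.1) and FANCB (67.5) were below the median of 122 of single-symbol probe sets on that untreated array.

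Genes with the most similar pattern over the 6 arrays were named for the 3 genes whose brightest probe set had an SD of at least 0.3 on the log2 scale. For RAD51D they were TAF4B and F2RL2 (Pearson r of 0.9997 and 0.9996 over 6 arrays), for BRCA1 PLXNA2 and SNRNP48 (0.9995 each) and for ATM GLT8D1 and PRPF39 (0.998 each). The 6 arrays fall into 2 lines, so that such values reflect the difference between the lines in each gene. The other 5 genes varied less over the arrays, with SDs of 0.13 for PALB2 to 0.21 for RAD51C.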

How the data were processed

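Groups were taken from the labels. The authors deposited 1 signal intensity for each probe set and array, made with Affymetrix Expression Console and MAS5 per the submitters' processing notes, versions not given in the sources used here, on a linear scale; trimming 2% at each end, the arrays' means were 500.06 to 500.07. Gene symbols came from the platform annotation; control probe sets (62) and those with several symbols (1801) or none (11721) were left out. Values were taken to log2 after adding 17.1, the 20th percentile of all values. limma 3.58.1 in R 4.3.3 (line and treatment as factors, trended prior variance, 2 residual degrees of freedom) was fitted to 23169 probe sets with at least 2 of 6 arrays at or above their median. Calls used a Benjamini-Hochberg adjusted p under 0.05 over all of them. The fit was also run on data simulated from its own estimates of spread, which cannot show whether its assumptions hold for these arrays. Inside each line, folds between single arrays were taken as log2 differences and called at 2-fold without a p-value, where the higher array was at or above its median (percentile 50). Promoters were searched and figures drawn with Python 3.11.15, pandas 2.3.3 and matplotlib 3.10.9.

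The genes, the lists and the tests were chosen with earlier results of these data known, and the promoter motifs and chromosomal neighbours after the values were seen. All probe sets of the 8 genes are named. Of the other pathway genes, the 5 in each direction with the largest called line difference and the 3 in each line with the largest IL-6 fold are named, as are the 3 proliferation genes in each direction with the largest line difference, with the RAD50 partners NBN and MRE11 and the proliferation marker MKI67 added after their values were seen. Likeness was taken among genes with an SD of at least 0.3. Alternatives were pseudocounts of 1 and of the median, quantile and cyclic loess normalization, other filters, 1 value a gene, no probe sets ending in _x_at or _s_at, no treatment term, a fold threshold and leaving out each array.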

Additional observations from a re-analysis of the deposited data

Results flagged for a closer look

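For 2 probe sets the fold of siltuximab plus IL-6 over IL-6 was at least 1.5-fold one way in SKOV-3 and at least 1.5-fold the other way in Caov-3. BRCA1 211851_x_at was at -0.70 in SKOV-3, whereas its Caov-3 fold was 0.65. ATM 210858_x_at was at -0.63 in SKOV-3, whereas its Caov-3 fold was 0.68. Each fold is 1 array over 1 array, so that the difference between the lines was not tested. Both Caov-3 folds rest on the IL-6 array with the ACTB ratio of 0.494. Against the untreated array, which leaves the IL-6 array out, the Caov-3 folds were -0.16 and -0.23. After quantile normalization they were 0.46 and 0.48 against the IL-6 array, below 1.5-fold. The brightest probe sets of the genes, BRCA1 204531_s_at and ATM 212672_at, were at 0.04 and -0.07 in SKOV-3, with Caov-3 folds of 0.19 and -0.06.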

How the results depend on the processing

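On the brightest probe sets no direction turned. RAD51D was called in all 16 settings in which its probe set was fitted, the reported one included, ATM in 16 of 17 and BRCA1 in 15 of 16, both falling short of the 2-fold minimum. ATR was called in 11 of 16, RAD51C in 4 of 16, BARD1 in 4 of 17, RAD50 in 3 of 16 and PALB2 in 0 of 17. The 9 line calls among repair probe sets were 3 of 8 genes when the probe sets of each gene were averaged (65% of all genes called). With only the brightest probe set of each gene fitted they were 6 of 8 (74.2% of all), 5 lower and 1 higher in Caov-3. RAD51C, the higher one, and BARD1 passed there (limma adjusted p 0.0397 and 0.0387). Without probe sets whose names end in _x_at or _s_at they were 5 of 12 (57.4% of all), of which 4 were among the 9. The other was ATM 1553387_at, a dim probe set that did not pass the filter of the reported fit. With a 2-fold minimum added the line calls were 4 (33.5% of all). With 1 array left out they were 6 to 11, with 47.7% to 66.7% of all called. With the 2-fold minimum the other pathway genes called went from 41 to 15 and the proliferation genes from 10 to 3. Leaving out an array leaves its treatment with 1 array, which then tells nothing of the lines, and 1 residual degree of freedom. For siltuximab plus IL-6 over IL-6 in SKOV-3 the single 2-fold probe set became 0 with the median as pseudocount, with a filter at the 75th percentile, with 1 probe set a gene and with probe sets averaged by gene, and 3 at 1.5-fold. Over untreated it became 0 under those same 4 settings, 2 with a pseudocount of 1 and 3 at 1.5-fold. For IL-6 in Caov-3 the 0 became 1 with a pseudocount of 1 and 2 at 1.5-fold, and for siltuximab plus IL-6 over IL-6 in Caov-3 it became 2 at 1.5-fold. The cause was not tested. No treatment effect over both lines was called for a repair probe set under any of the 15 alternatives, although 9.29% of all probe sets were called for IL-6 without the SKOV-3 IL-6 array. The fit sets the lines against each other within each treatment, and without the treatment term 13 of the 19 were called (64.2% of all). The labels give no replicate numbers by which to pair arrays further.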
